A study of Drosophila melanogaster with 8 samples.

Results

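The UDP-glycosyltransferase family of Drosophila melanogaster was followed in adult heads after Eyes absent (EYA) overexpression. Members were the probe sets whose only gene symbol begins, in the current annotation, with Ugt and a number. There were 35 probe sets for 35 genes, 1 for each Ugt gene of that annotation, among 18769 probe sets that are not Affymetrix controls. RNA from adult male and female heads was hybridised to 8 arrays in 4 groups of 2, and every group had been heat shocked for 1 h at 37 C and then kept for 3 h at 25 C. Control flies were of the W1118 strain and carried neither driver nor transgene. The other flies carried the driver Hsp-GAL4, under a heat-inducible promoter that is not confined to the eye, together with a UAS transgene for EYA, either UAS-EYA-wildtype, or UAS-EYA-D493N, or else UAS-EYA-E728Q. The D493N mutation reduces the phosphatase activity of EYA, and E728Q leaves little if any. A comparison with control therefore contains the driver, the transgene insertion, the strain background and EYA itself, which cannot be told apart. The transgenic groups share the driver, and differences between them can still contain the insertion. Each RNA came from 200 heads in 4 lots of 50, ages are not given in the labels, and nothing says that the 2 arrays of a group came from separate cultures, so the spread behind each p-value may be technical.

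UDP-glycosyltransferases are enzymes, mostly anchored in the endoplasmic reticulum, that move a sugar from a UDP-sugar onto small fat-soluble molecules and so make them easier to excrete. In insects the usual donor is UDP-glucose. The substrates include plant toxins, insecticides, pigments, cuticle precursors and, in the antenna, odorants. The family grew by tandem duplication, and many members lie side by side in the genome.

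The deposited values are linear intensities scaled to a median of 100 on each array, called signal here. All fold changes are log2 differences of quantile-normalized values with a pseudocount of 17.5, so they understate the change of low signals. A member was called at an adjusted p under 0.05, from limma with Benjamini-Hochberg adjustment over all 11261 tested probe sets. The correlation of replicate arrays was lowest for D493N (r = 0.981) and highest for wild-type EYA (r = 0.991), a correlation across probe sets, which are no independent replicates. Within a group, the log2 differences between its arrays had an SD of 0.39 with D493N and 0.27 to 0.32 in the other groups. RNA integrity was read from the 3' to 5' signal ratio of Act5C, which stood at 5.63 and 6.26 on the D493N arrays, 4.84 and 5.11 on the E728Q arrays, and 4.15 to 4.35 on the others. Its part in the results was not tested.

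Of the 35 members, 17 passed the filter on mean signal and were tested, and 18 did not pass. All tested members but 1 had a mean signal of at least 67.7 in every group, above the lowest tested mean of 38.1. The exception was Ugt37A3, with a mean of 25.2 in the E728Q group, which passed only through its higher groups. Against control, more tested members fell than rose. With wild-type EYA 6 fell and 2 rose. With D493N 8 fell and 3 rose. With E728Q 8 fell and 2 rose. The 8, 11 and 10 members called in either direction against control (wild-type, D493N and E728Q groups) stand beside 22.3%, 27.9% and 23.5% of all tested probe sets. Among them 3, 3 and 4 members changed at least 2-fold, against 6.08%, 7.66% and 5.91% of all. With E728Q, both the 8 that fell and the 4 changed at least 2-fold include Ugt37A3. These E728Q counts therefore rest in part on a member that passed the filter only through its other groups. The arrays of the 2 groups did not overlap for 14, 13 and 14 members, and for 62.8%, 59.4% and 62.2% of all. Among all tested probe sets 10.9% were called lower and 11.4% higher with wild-type EYA, against 13.9% and 14% under D493N and 11.7% and 11.8% under E728Q. The tested members had a median log2 fold change of -0.37, -0.53 and -0.38 in the wild-type, D493N and E728Q groups, while all tested probe sets had medians of -0.03, -0.02 and -0.00. The counts and medians are a description, since the members are related genes and not replicates. The 3 comparisons share the same 2 control arrays.

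**Figure D1:**
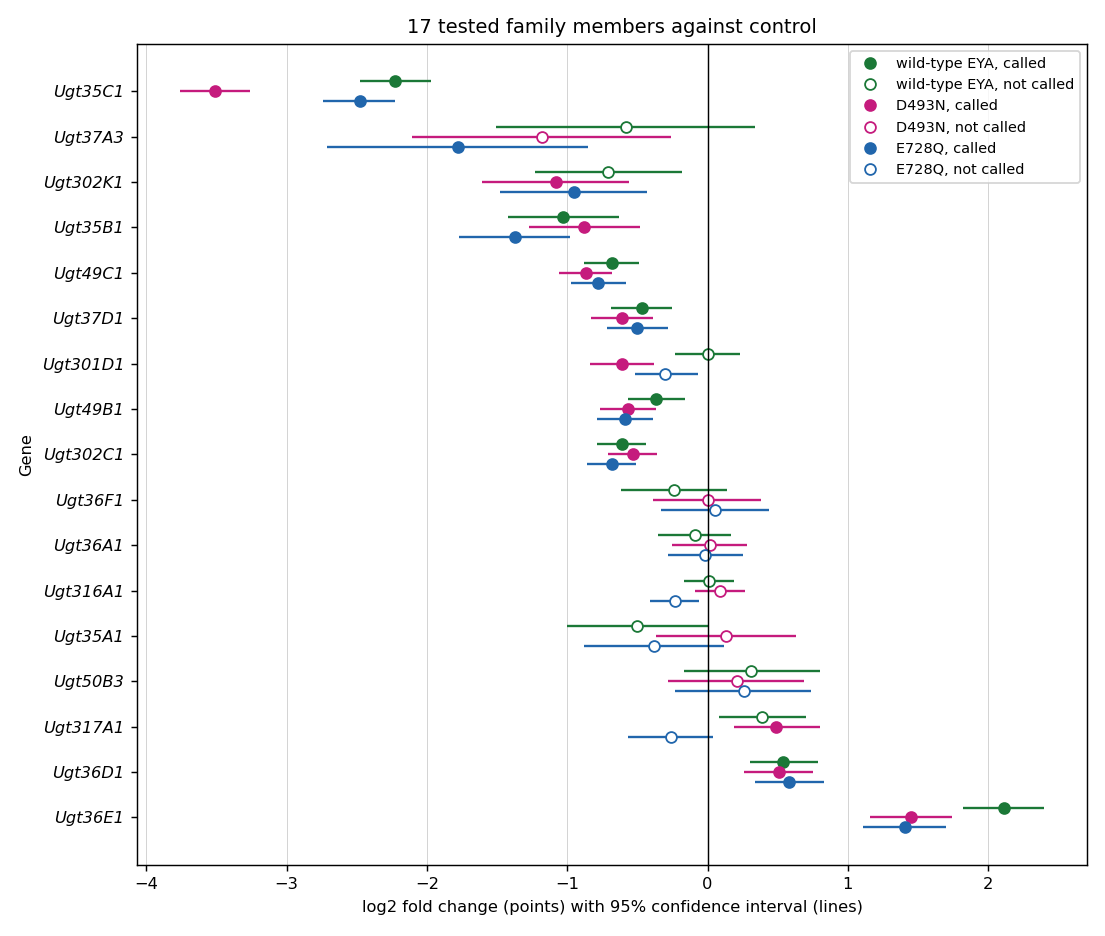
Log2 fold change against control (horizontal axis) of the 17 tested UDP-glycosyltransferase genes (vertical axis) for wild-type EYA, D493N and E728Q, 2 arrays per group. Points are limma estimates, filled where called, and lines are 95% confidence intervals. Ugt35C1 lies at -2.23 to -3.51 and Ugt36E1 at 1.41 to 2.11, and the other called members lie between -1.78 and 0.58.

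Ugt35C1, earlier named Ugt86Dd, had the lowest fold changes of the family. Natural variation in this gene is known to affect the resistance of fly larvae to nicotine. Its signal was 1803 and 1605 on the control arrays, 365 and 330.3 under wild-type EYA, 145 and 127 under D493N, and 283 and 305 under E728Q. No array of a transgenic group came near the control arrays, and the D493N arrays were the lowest of all. The log2 fold change against control was -2.23 (SE 0.11, adjusted p = 3.98e-06) with wild-type EYA, which is 4.68-fold lower. It was -3.51 (SE 0.11, adjusted p = 3.72e-07) with D493N, 11.4-fold lower, and -2.48 (SE 0.11, adjusted p = 2.82e-06) with E728Q, 5.59-fold lower. The order of levels was control, wild-type EYA, E728Q and D493N. Wild-type EYA and E728Q, neighbours in that order, differed by 0.26 on the log2 scale (95% interval 0.00 to 0.51, adjusted p = 0.47) and were not called different.

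**Figure D2:**
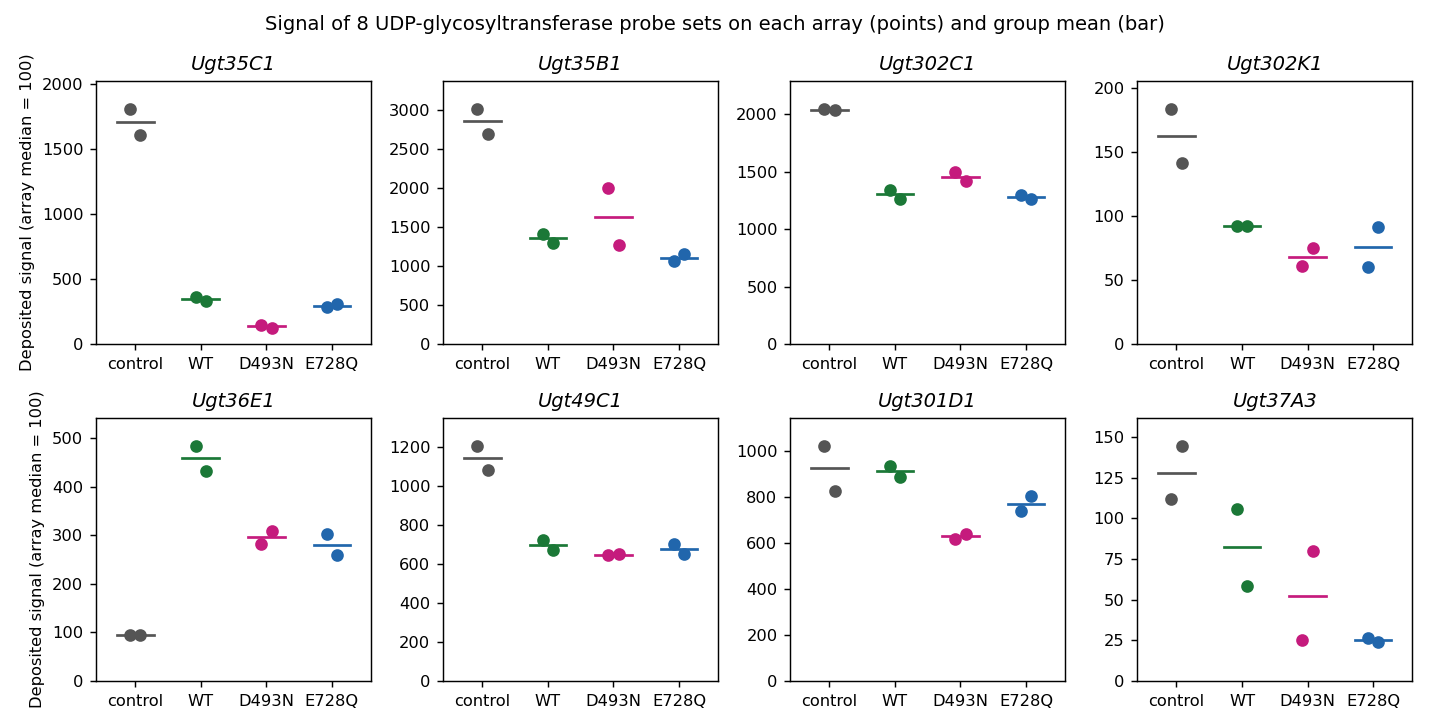
Deposited signal (vertical axes, linear from 0, array median 100) on the 2 arrays of each group (points) with the group mean (bar) for 8 UDP-glycosyltransferase genes. The Ugt35C1 points drop from 1605 or more in control to 127 to 365 in the transgenic groups, and those of Ugt36E1 lift from 94.0 and 95.5 to between 259.7 and 484.

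Ugt35C1 heads a run of 10 members on chromosome arm 3R, within which 3 other genes are interspersed. Of the 10 members, 5 were tested, and every call among them was a decrease. Ugt35B1, known for its expression in the antenna, had signals of 3008 and 2695 on the control arrays, 1416 and 1294 under wild-type EYA, 1997 and 1272 under D493N, and 1060 and 1151 under E728Q. All 6 transgenic arrays lay below both control arrays, and the D493N arrays were farthest apart. The log2 fold change of Ugt35B1 was -1.03 (SE 0.17, adjusted p = 0.00303) with wild-type EYA, -0.88 (SE 0.17, adjusted p = 0.0056) with D493N and -1.37 (SE 0.17, adjusted p = 0.000626) with E728Q. Without D493N replicate 2 the D493N value was -0.55 (adjusted p = 0.000994), and without D493N replicate 1 it was -1.21.

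Ugt302C1 lies within the same run. Its signals were 2043 and 2034 on the control arrays, 1344 and 1260 under wild-type EYA, 1500 and 1415 under D493N, and 1293 and 1266 under E728Q. It fell by 0.61 (SE 0.08, adjusted p = 0.000557), 0.53 (SE 0.08, adjusted p = 0.00101) and 0.68 (SE 0.08, adjusted p = 0.000318) on the log2 scale in the wild-type, D493N and E728Q groups. The groups with EYA did not overlap control.

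Ugt302K1 was measured at low signal, 183 and 141 in control, 92.4 on each wild-type array, 60.6 and 74.8 under D493N, and 60.1 and 91.5 under E728Q. It was called with D493N (-1.08, SE 0.23, adjusted p = 0.00791) and E728Q (-0.95, SE 0.23, adjusted p = 0.0174), and its value with wild-type EYA was -0.71 (95% interval -1.23 to -0.18, adjusted p = 0.0604). The wild-type value was called with only the groups compared (adjusted p = 0.0227), a pseudocount 4 times as large (0.0432) or no mean-variance trend (0.0475). The calls of Ugt302K1 with D493N and E728Q did not hold in every alternative. Without control replicate 1 the adjusted p was 0.0764 with D493N and 0.136 with E728Q, and without E728Q replicate 1 it was 0.112 with E728Q.

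Ugt35A1, a close relative of Ugt35B1 that lies next to it, was not called against control. Its signals were 359 and 466 on the control arrays, 292 and 276 under wild-type EYA, 605 and 359.7 under D493N, and 306 and 324 under E728Q. The D493N and control arrays overlapped, and the wild-type and E728Q arrays lay below control. Its log2 fold changes were -0.50, 0.13 and -0.38 (SE 0.22 each, adjusted p = 0.151, 0.713 and 0.269) with wild-type EYA, D493N and E728Q. In a fit with only the groups compared, the wild-type value was called (-0.50, SE 0.15, adjusted p = 0.0411).

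CG4757, which is no member but lies between Ugt302C1 and Ugt35E1 in this run, had signals of 565 and 662 on the control arrays, 110.1 and 137 under wild-type EYA, 161 and 126 under D493N, and 90.6 and 96.6 under E728Q. All its transgenic arrays were far below control. It fell by 2.19, 2.02 and 2.54 on the log2 scale (adjusted p = 5.86e-05, 7.57e-05 and 2.66e-05). CG18577, the gene after the last member of the run, had signals of 90.5 and 89.3 on the control arrays, 53.4 and 49.8 under wild-type EYA, 4.30 and 8.85 under D493N, and 67.8 and 58.1 under E728Q. Only its D493N value was called (-2.16, adjusted p = 0.000581). The values with wild-type EYA and E728Q were -0.62 (adjusted p = 0.159) and -0.43 (adjusted p = 0.323). Its D493N signals lie under the pseudocount, which limits the fold. Over all 18 tested genes that directly adjoin a member, median log2 fold changes were -0.10, -0.15 and -0.06 in the wild-type, D493N and E728Q groups. Of them limma called 0 higher in any of the 3 comparisons, with 1 higher in each at an unadjusted p under 0.05. Among all tested probe sets, 11.4%, 14% and 11.8% were called higher, and 10.9%, 13.9% and 11.7% lower. Whether the neighbours differ from these shares was not tested. Of the neighbours 1, 4 and 3 fell, in the same order of groups. The others that fell were CG17928 next to Ugt37C2 (-0.52 and -0.40 with D493N and E728Q), Pvf2, a growth factor gene next to Ugt307A1 (-0.98 with D493N), and Gcn2, a translation kinase gene next to Ugt35D1 (-0.45 with E728Q).

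**Figure D3:**
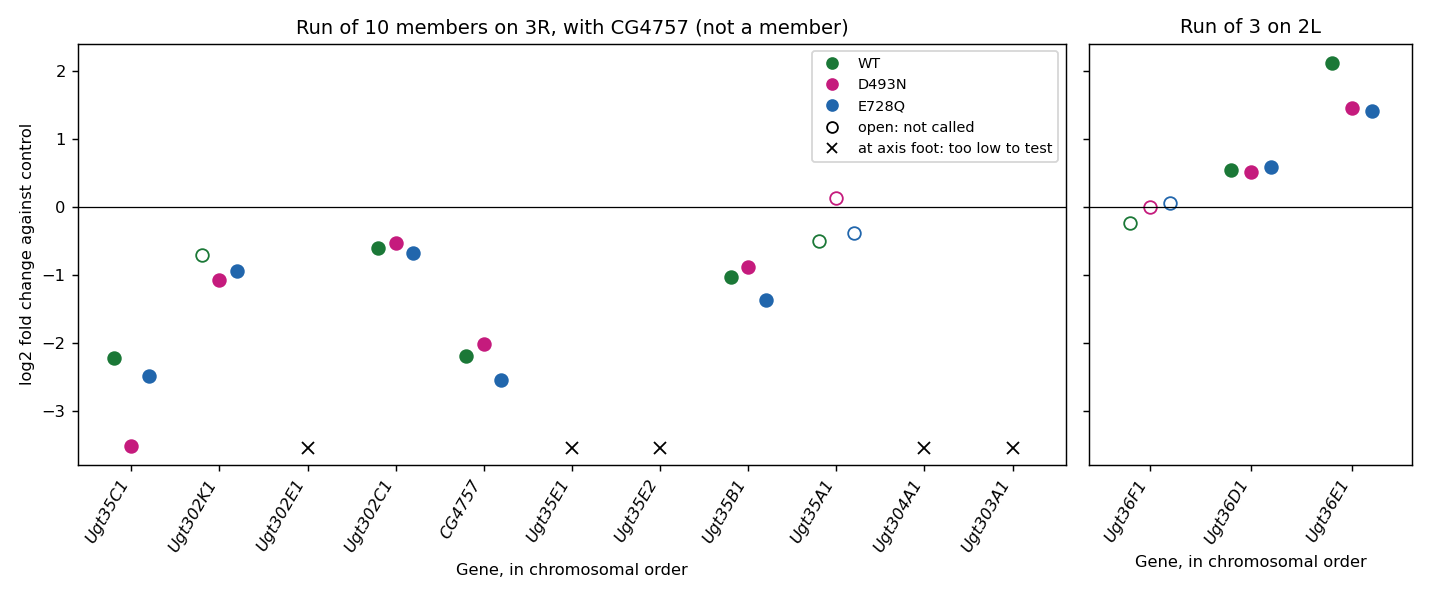
Log2 fold change against control (vertical axis) of a run of 10 members on 3R, drawn with 1 of the 3 other genes within it, CG4757, and in a run of 3 members on 2L, in chromosomal order (horizontal axis), 2 arrays per group. Filled points were called, open points were not, and crosses at the foot mark members too low to test. The calls on 3R are all decreases, from -0.53 to -3.51, and those on 2L are all increases, from 0.51 to 2.11.

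The members that rose in each comparison with control, Ugt36E1 and Ugt36D1, are adjacent genes on 2L. Ugt36E1 had signals of 94.0 and 95.5 on the control arrays, 484 and 433 under wild-type EYA, 283 and 309 under D493N, and 302 and 259.7 under E728Q. The control arrays were lowest and the wild-type arrays highest, with no overlap between control and any transgenic group. Its log2 fold change was 2.11 (SE 0.13, adjusted p = 1.2e-05) with wild-type EYA, 4.32-fold higher, 1.45 (SE 0.13, adjusted p = 6.82e-05) with D493N and 1.41 (SE 0.13, adjusted p = 1e-04) with E728Q. Its probe set carries the Affymetrix suffix for probes shared by several transcripts, as do those of Ugt37D1 and Ugt50B3, so transcripts cannot be separated there.

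Ugt36D1 had signals of 725 and 666 on the control arrays, 1044 and 987 under wild-type EYA, 963 and 1168 under D493N, and 1042 and 1149 under E728Q. All 6 transgenic arrays were above control and overlapped among themselves. It rose by 0.54 (SE 0.11, adjusted p = 0.00691), 0.51 (SE 0.11, adjusted p = 0.00755) and 0.58 (SE 0.11, adjusted p = 0.00457) with wild-type EYA, D493N and E728Q. Without control replicate 2 the wild-type and D493N calls were lost (adjusted p = 0.0509 and 0.0517), and without wild-type replicate 1 the wild-type call was lost (0.0552). Ugt36F1, the next gene of the run, had log2 fold changes of -0.24, -0.00 and 0.05, with 95% intervals inside -0.62 and 0.44, and was not called. Ugt36A1, earlier named Dorothy and known from a driver line for pericardial cells, lies elsewhere on 2L. It was not called (-0.09, 0.02 and -0.02), and its 95% intervals stayed inside -0.35 and 0.28.

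Ugt49B1 and Ugt49C1, adjacent on 2R, fell in every comparison with control. Ugt49C1 had signals of 1206 and 1081 on the control arrays, 724 and 673 under wild-type EYA, 646 and 649 under D493N, and 702 and 654 under E728Q. The transgenic arrays lay close together and all below control. Its log2 fold change was -0.68 (SE 0.08, adjusted p = 0.000532), -0.87 (SE 0.08, adjusted p = 0.000113) and -0.78 (SE 0.08, adjusted p = 0.000273) with wild-type EYA, D493N and E728Q. Ugt49B1 went from 771 and 735 in control to between 507 and 602 on the transgenic arrays. It fell by 0.37 (adjusted p = 0.0179), 0.57 (adjusted p = 0.00156) and 0.59 (adjusted p = 0.00162). The wild-type call for Ugt49B1 was lost without any 1 of the 4 arrays compared (adjusted p = 0.0741 to 0.113).

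Among the Ugt37 genes, 2 of 8 were tested. Ugt37D1 had signals of 1745 and 1731 in control and 1140 to 1359 on the transgenic arrays, with no overlap. It fell by 0.47 (adjusted p = 0.00807), 0.61 (adjusted p = 0.00161) and 0.50 (adjusted p = 0.00587) with wild-type EYA, D493N and E728Q. Leaving out control replicate 2 ended its wild-type call (adjusted p = 0.07) and its E728Q call (0.054), as did wild-type replicate 1 for the former (0.0647) and E728Q replicate 2 for the latter (0.0532).

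Ugt37A3 had signals of 112 and 145 on the control arrays, 106 and 58.6 under wild-type EYA, 25.4 and 79.7 under D493N, and 26.6 and 23.7 under E728Q. The wild-type and D493N pairs were wide apart, and the E728Q pair was low and close. Its log2 fold changes were -0.58 (95% interval -1.51 to 0.34, adjusted p = 0.367), -1.18 (-2.11 to -0.26, adjusted p = 0.0603) and -1.78 (-2.71 to -0.85, adjusted p = 0.013), of which only the E728Q value was called. That call was lost without any 1 of the 4 arrays compared (adjusted p = 0.052 to 0.0988).

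Of the remaining tested members, Ugt301D1 fell with D493N. It had signals of 1020 and 826 on the control arrays, 934 and 886 under wild-type EYA, 616 and 639 under D493N, and 736 and 803 under E728Q. The wild-type arrays lay within the control range, and the D493N arrays were lowest. Its log2 fold changes were 0.00 (95% interval -0.23 to 0.23), -0.61 (SE 0.10, adjusted p = 0.00202) and -0.30 (95% interval -0.52 to -0.07, adjusted p = 0.0632). Ugt317A1 rose with D493N, with signals of 271 and 323 against 206 and 196 in control (log2 fold change 0.49, SE 0.13, adjusted p = 0.0249). Its values with wild-type EYA and E728Q were 0.39 (adjusted p = 0.0723) and -0.26 (adjusted p = 0.205). Leaving out control replicate 1, control replicate 2 or D493N replicate 2 ended the D493N call of Ugt317A1 (adjusted p = 0.102, 0.104 and 0.107), and so did a fit with only the groups compared (0.0686) or with no filter (0.0683). Ugt316A1 (0.01, 0.09 and -0.23) and Ugt50B3 (0.31, 0.21 and 0.26), which belongs to a subfamily conserved across insects, were not called.

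The phosphatase mutants were compared with wild-type EYA and with each other. Ugt35C1 was higher with wild-type EYA than with D493N by 1.28 on the log2 scale (SE 0.11, 95% interval 1.03 to 1.54, adjusted p = 0.00133), 2.43-fold. It was lower with D493N than with E728Q by 1.03 (log2 fold change -1.03, SE 0.11, adjusted p = 0.00898). Ugt301D1 was higher with wild-type EYA than with D493N by 0.61 (SE 0.10, adjusted p = 0.0287). Among all tested probe sets 1.15% were called between wild-type EYA and D493N, where 2 of 17 members were called, and 0.169% between D493N and E728Q, where 1 was called. Between wild-type EYA and E728Q 0.71% were called in all and 0 of 17 members by limma. Of these members 7 had an unadjusted p under 0.05. The share of all tested probe sets at that threshold was not counted, so the 7 are not read as a result about the family. Non-overlapping arrays were found for 11, 12 and 8 members between wild-type EYA and D493N, wild-type EYA and E728Q, and D493N and E728Q, and for 46.3%, 49.2% and 39.6% of all tested probe sets.

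Some of these calls depended on the arrays or settings used. Fitted with only the groups compared, Ugt35C1 lost both calls (adjusted p = 0.0534 against wild-type EYA and 0.332 against E728Q), with log2 fold changes of 1.28 and -1.03. The call between D493N and E728Q was also lost without the mean-variance trend (adjusted p = 0.0562) and without E728Q replicate 1 (0.0673) or 2 (0.119). The Ugt301D1 difference was lost under 10 of 16 alternatives (adjusted p up to 0.234). The wild-type and D493N arrays did not overlap for either gene. For Ugt35B1 and Ugt35A1, not called between transgenes, the values depended on which D493N array was kept. Without D493N replicate 2, Ugt35B1 had log2 differences of -0.47 (wild-type EYA minus D493N) and 0.82 (D493N minus E728Q). Without D493N replicate 1 they were 0.18 and 0.17. Ugt35A1 had -0.97 and 0.85 without D493N replicate 2. Over all left-out arrays its values ran from -0.97 to -0.28 and from 0.16 to 0.85. For both genes replicate 1 was the higher D493N array. Leaving out D493N replicate 2 also raised the counts called, over members and over all probe sets.

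Ugt36E1, the member that rose most, was higher with wild-type EYA than with D493N by 0.66 (95% interval 0.37 to 0.95, adjusted p = 0.0547) and than with E728Q by 0.70 (0.41 to 1.00, adjusted p = 0.0568), differences that missed the threshold. Both wild-type arrays were above all 4 mutant arrays. It was called in both under a pseudocount 4 times as large (adjusted p = 0.0458 and 0.0446). D493N and E728Q differed by 0.05 for this gene (95% interval -0.24 to 0.34). For Ugt317A1 the value with E728Q was lower than with wild-type EYA by 0.65 (95% interval 0.35 to 0.96, adjusted p = 0.0828) and than with D493N by 0.76 (0.45 to 1.06, adjusted p = 0.0894), neither of them called.

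**Figure D4:**
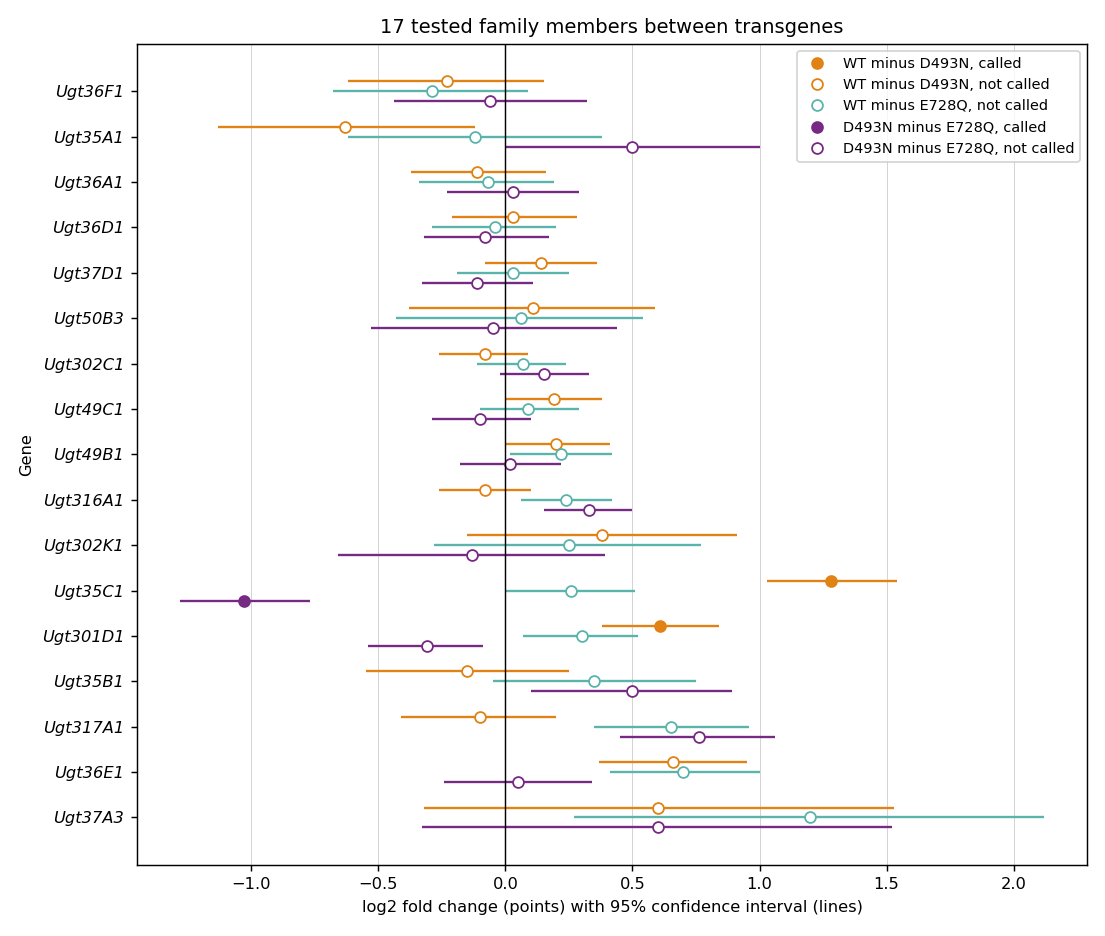
Log2 differences between transgenes (horizontal axis) of the 17 tested UDP-glycosyltransferase genes (vertical axis), 2 arrays per group. Points are limma estimates, filled where called, and lines are 95% confidence intervals. The filled points are Ugt35C1 at 1.28 and -1.03 and Ugt301D1 at 0.61.

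The 18 members that did not pass the filter were Ugt302E1, Ugt303A1, Ugt303B1, Ugt303B2, Ugt303B3, Ugt304A1, Ugt305A1, Ugt307A1, Ugt35D1, Ugt35E1, Ugt35E2, Ugt37A1, Ugt37A2, Ugt37B1, Ugt37C1, Ugt37C2, Ugt37E1 and Ugt49B2. Their signals ran from 0.43 to 52.99, and 81 of the 144 values were under the pseudocount. All 3 members of the Ugt303B run on 3R were among them. Detection calls were not used here, and a low signal does not show that a gene was silent. With no filter, which admits all 18769 probe sets, 2 of these genes were called, each in a single comparison. The alternatives other than leaving out 1 array, no filter among them, called 2223 to 3166 probe sets in all with D493N and 2220 to 3296 with E728Q against control. The 2 calls are therefore not read as a result about these genes. Ugt37B1 had signals of 1.77 and 2.07 on the control arrays, 3.36 and 1.99 under wild-type EYA, 12.0 and 8.41 under D493N, and 30.5 and 21.2 under E728Q. The E728Q arrays were the highest and the only ones above the pseudocount. The log2 fold change with E728Q was 1.14 (SE 0.27, adjusted p = 0.0238). Ugt37A2 had signals of 45.0 and 22.5 in control and 3.87 and 2.65 with D493N, and its log2 difference was -1.28 (SE 0.36, adjusted p = 0.0468).

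Genes linked to the same reaction were followed from lists of known function. Against control, 22.3%, 27.9% and 23.5% of all tested probe sets were called with wild-type EYA, D493N and E728Q. The counts of these lists, and of the cell type markers below, stand beside those shares. Of 4 tested genes listed for the supply of UDP-sugars, 1, 2 and 1 rose in the wild-type, D493N and E728Q groups. From this list limma called 0 lower, also at an unadjusted p under 0.05. The gene sgl, which encodes UDP-glucose dehydrogenase, an enzyme that uses UDP-glucose, rose by 0.60 (adjusted p = 0.0194) with wild-type EYA and 0.73 (adjusted p = 0.00595) with D493N. Ugalt, a UDP-galactose transporter gene, rose by 0.40 (adjusted p = 0.00862) with D493N and 0.41 (adjusted p = 0.00926) with E728Q. Pgm1 (-0.14, -0.09 and 0.08) and UGP (0.35, 0.80 and 0.42, at signals of 39.84 to 90.32) were not called. The median log2 fold changes of this list were 0.25, 0.57 and 0.42. They do not measure the supply of UDP-glucose. Of 6 tested genes listed for other enzymes that use UDP-sugars, 1, 2 and 2 rose, and limma called 0, 1 and 0 lower, with 2, 2 and 1 lower at an unadjusted p under 0.05. The list includes egh, whose product, a glycolipid mannosyltransferase, takes its sugar from GDP-mannose and so does not belong by function. It rose by 0.66, 0.62 and 0.61 and was the only listed gene called with wild-type EYA. Uggt, whose product glucosylates misfolded glycoproteins, rose by 0.33 with D493N and 0.42 with E728Q, and GlcAT-P, a glucuronyltransferase gene, fell by 0.40 with D493N. The list's medians were -0.12, 0.01 and 0.16.

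Neither of 2 tested sulfotransferase genes, which act on the same kinds of substrate, was called in a comparison with control, and neither had an unadjusted p under 0.05. Among 6 regulators of detoxification genes, maf-S, the partner of the stress factor encoded by cnc, rose by 0.29, 0.24 and 0.30 (adjusted p = 0.0183, 0.0386 and 0.0153). Hr96, a nuclear receptor gene of the xenobiotic response, rose by 0.63 with D493N (adjusted p = 0.0044), and tgo, which encodes a partner of the aryl hydrocarbon receptor homolog, fell by 0.34 with wild-type EYA (adjusted p = 0.0339). Of 4 tested efflux transporter genes, Mdr49 fell by 0.56, 0.63 and 0.61 (adjusted p = 0.00943, 0.00439 and 0.00595) and Mdr65 by 0.44 with D493N (adjusted p = 0.0072). Neither MRP (-0.18, -0.12 and -0.27) nor rdog, which went the other way (0.35, 0.03 and 0.28), was called. The medians of this list were -0.21, -0.28 and -0.22.

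Markers of cell types in the head moved in the same comparisons, and their part in the Ugt results was not tested. In whole heads, fewer cells of a type and less RNA per cell cannot be told apart. Cyp4g1, the defining cytochrome P450 of oenocytes, fell by 2.45, 2.12 and 2.22 on the log2 scale (adjusted p = 0.000147, 0.000256 and 0.000251). Its signal was 577.9 and 609.5 in control and 70.92 to 139.8 on the transgenic arrays. The summed signal of the 4 oenocyte markers with a probe set, 713.2 and 734.7 in control and 176.9 to 306.2 on the transgenic arrays, is mostly that of Cyp4g1. The other tested oenocyte markers were not called. FASN2 had log2 fold changes of 0.21, 0.29 and 0.04, and FASN3 had -0.05, 0.34 and -0.34. The medians of the 3 tested markers were -0.05, 0.29 and -0.34.

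Of 9 tested fat body markers, 5, 4 and 5 fell and 2 rose in each comparison, with medians of -0.31, -0.10 and -0.24. The gene fon, for a clotting protein, fell by 0.98, 1.53 and 1.57, and Lsp2, a storage protein gene, rose by 1.49, 1.60 and 1.60. The marker gene named fit fell by 0.62, 1.82 and 2.36. It was also higher with wild-type EYA than with D493N by 1.20 (adjusted p = 0.0222) and than with E728Q by 1.74 (adjusted p = 0.00572). The summed fat body signal was 122093 and 132055 in control, 99368 to 115869 with wild-type EYA, 114366 to 131246 with D493N and 107157 to 110124 with E728Q.

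Antennal markers were followed because Ugt35B1 is known from the antenna. Of 8 tested, 2, 1 and 3 rose in the wild-type, D493N and E728Q groups, and limma called 0 lower, also at an unadjusted p under 0.05. Those that rose were the odorant binding protein genes Obp83b, Obp84a and Obp19a. Among the uncalled markers, lush had log2 fold changes of -0.28, -0.63 and -0.43, and Ir25a had -0.28, 0.50 and -0.34. The medians of the 8 tested markers were 0.22, 0.56 and 0.66. The summed signal of the 9 antennal markers with a probe set was 1351 and 2486 in control and 3178 to 4347 with wild-type EYA. It was 2470 to 4823 with D493N and 3523 to 4932 with E728Q. The control arrays differed widely, with 125.8 and 672.3 for Obp83b. Orco, the co-receptor of odorant receptors, ran from 136 to 240.3 over the 8 arrays and was not called. Of 6 glial markers, 1, 2 and 1 rose and 1, 4 and 2 fell. Neuronal markers were not called, and no marker was at 0 on any array.

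Among 4 tested midgut markers, Mal-A1, a maltase gene, fell by 1.23 with wild-type EYA (adjusted p = 0.000818) and 0.82 with D493N (adjusted p = 0.00558), and its E728Q value was -0.52 (adjusted p = 0.0501). The other tested midgut markers were not called and did not move as Mal-A1 did. The values of betaTry were 1.35, 1.26 and 1.91 (SE 0.74 each), at signals of 5.298 to 204.2. Those of alphaTry were -1.02, -0.33 and 0.68, and those of Jon65Aiv -0.95, -0.87 and 0.23. The medians of the 4 were -0.98, -0.58 and 0.45. The summed midgut signal was 396.7 and 448.6 in control and 207.3 to 262.8 on the transgenic arrays other than E728Q replicate 2, where it was 1092. Of 7 listed photoreceptor markers, 2 had a probe set with a single symbol, and both were tested. The gene inaD rose by 0.19 with E728Q (adjusted p = 0.0389), and its values of 0.17 and 0.15 with wild-type EYA and D493N were not called. The other, trp, was not called, at -0.04, -0.23 and -0.00 with wild-type EYA, D493N and E728Q. Lkr, the tested Malpighian tubule marker, was not called. Muscle markers were not called either, but they split the D493N arrays. Act88F, a flight muscle actin gene, had signals of 213.8 and 951.8 on D493N replicates 1 and 2, and the summed muscle signal was 3582 and 8018, against 6081 to 7979 on the other arrays. Ugt35B1 and Ugt35A1 differed between the same arrays, in the opposite direction, and the part of the muscle markers in this was not tested.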

How the data were processed

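Heads of 4 groups were measured on 8 Affymetrix arrays. The authors deposited 1 linear intensity per probe set and array, and GCOS is named in the submitters' processing notes. The sources used here do not state the summary method or its settings. Every array had a median of 100, but trimmed means (2nd to 98th percentile) spread by 11.5%, above the tolerance of 5%, so quantile normalization was applied. Before log2, 17.5 was added as pseudocount, the 25th percentile of the values. Ranked by mean over the 8 arrays, the upper 60% of probe sets, 11261, were tested with limma 3.58.1 in R 4.3.3, in 1 fit over the 4 groups with a mean-variance trend and 4 residual degrees of freedom, for 6 comparisons. P-values were adjusted by Benjamini-Hochberg within each comparison. The number of arrays limits the precision, and the depth of an array is not a count.

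Probe sets were named through the platform annotation, updated by gene ID to the RefSeq annotation of Release 6. Of 18952 probe sets, 183 Affymetrix controls included, 13647 had 1 symbol, 402 had several and 4903 had none. All 35 members matched, each with 1 symbol. Gene order came from that annotation, and no coordinates are given because no build is named for the files. Sequences were not used here. A run is a set of members with at most 2 other genes between neighbours.

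The members and the gene lists were chosen with earlier results of these data known. Members named with every array's value were those called with a log2 change of at least 1 against control or called between transgenes, then called members of smaller change in order of size up to 8. The other tested members are also described, along with called neighbours of members and up to 4 called genes of a list. Over all tested probe sets, same-numbered arrays did not deviate together (r from -0.144 to 0.094), so replicate numbers were not used to pair arrays. A batch shared by same-numbered arrays that affects only some genes would not show in these values. Alternatives were the deposited scale, the pseudocount, the filter, the trend, the samples in the fit, the replicate block and leaving out each array. The fit was tested on simulated data. 0 columns of per-sample values went unused.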

Additional observations from a re-analysis of the deposited data

Results flagged for a closer look

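In the main fit, 3 differences between transgenes were tested directly and passed the threshold, so that there the effect against the shared control arrays differed between groups. Ugt35C1 was higher with wild-type EYA than with D493N by 1.28 on the log2 scale. Its D493N value was also below that with E728Q, with a log2 fold change of -1.03. Ugt301D1 was higher with wild-type EYA than with D493N by 0.61 on the log2 scale. None of the 3 calls held under all 16 alternatives. The Ugt301D1 call was lost under 10 of them. The Ugt35C1 call between D493N and E728Q was lost under 4, and that between wild-type EYA and D493N under 1. The ratio of 3' to 5' signal of Act5C was highest on the D493N arrays (5.63 and 6.26), and its part in these differences was not tested.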

How the results depend on the processing

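Of 32 calls of a member in a comparison, 20 held under all 16 alternatives and 12 were lost under at least 1. No called value changed sign (0 of 32). Of the 70 member values that were not called, 22 changed sign and 15 were called under some alternative. Leaving out 1 array gave 1413 to 3423 calls over all probe sets with wild-type EYA against control (2516 with all arrays), 1868 to 3731 with D493N (3147) and 1483 to 3516 with E728Q (2648), and 5 to 11, 9 to 11 and 8 to 12 members (8, 11 and 10). Between transgenes the counts moved further. For wild-type EYA against D493N (130 probe sets, 2 members), 1 array less gave 17 to 1021 probe sets and 1 to 5 members, only the groups compared gave 17 and 0, no trend gave 27 and 1, and the deposited scale gave 1 member. For wild-type EYA against E728Q (80 probe sets, 0 members), 1 array less gave 11 to 322 and 0 to 3, only the groups compared gave 230 and 1, no trend gave 23 probe sets and no filter gave 46. For D493N against E728Q (19 probe sets, 1 member), 1 array less gave 4 to 1096 and 0 to 4, only the groups compared gave 3 and 0, and no trend gave 7 and 0. With the replicate block, 86 probe sets and 1 member were called between wild-type EYA and D493N and 46 probe sets between wild-type EYA and E728Q, and 1 call of a member was lost, Ugt301D1 (0.61, adjusted p = 0.0607). Where 1 array of a group was left, its spread was taken from the other groups. Apart from fewer arrays in the fit, the causes were not tested. Low signals limit what 18 members can show.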
